A study of Mus musculus with 6 samples.

Results

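Enteroendocrine hormone and granule genes were compared in colon tissue between mice prone to obesity (OP) and mice resistant to it (OR). The list held 10 genes chosen by symbol, *Chga*, *Chgb*, *Gcg*, *Pyy*, *Insl5*, *Tph1*, *Sst*, *Cck*, *Nts* and *Neurod1*. All 10 were found among the 17778 genes listed, and all 10 were among the 13520 genes tested. The 6 animals were wild-type male C57BL/6J mice, each sequenced as a library of its own, and all had been fed a 60% fat diet for 16 weeks and were 21 weeks of age. Of 42 mice on this diet, the 10 that gained the most weight had been named OP and the 10 that gained the least OR. From each set 3 animals had their colon RNA measured. Which stretch of the colon was taken is not given in the sources used here. The groups therefore shared genotype, diet and age and were defined by weight gain, so they describe the ends of the response of 1 inbred strain to 1 diet. They were not alike in all else, since the paper reports differences in gut microbiota and metabolites between OP and OR mice.

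Enteroendocrine cells are scattered hormone-secreting cells of the gut epithelium. They store peptides and serotonin in dense-core granules and release them in response to nutrients, bile acids and microbial products. In the mouse colon the main kinds are enterochromaffin cells, which make serotonin, L cells, which make glucagon-like peptides, peptide YY and, mainly towards the rectum, insulin-like peptide 5, and D cells, which make somatostatin.

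Promoter sequence of 4 members is shown because *Chga*, *Chgb* and *Sst* are classical genes with a cyclic AMP response element (CRE) close to the start, and *Cck* matches the core of that element. The sequences are from RefSeq (build GRCm38.p6) and are read 5′ to 3′ on the strand of the gene, and capitals mark matches to TGACGTNA or to its core TGACG on either strand.
Chga: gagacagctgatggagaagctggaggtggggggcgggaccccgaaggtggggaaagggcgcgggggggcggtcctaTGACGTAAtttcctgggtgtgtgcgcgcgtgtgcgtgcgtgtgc
Chgb: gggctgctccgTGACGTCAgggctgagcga
Sst: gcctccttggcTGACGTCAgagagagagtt
Cck: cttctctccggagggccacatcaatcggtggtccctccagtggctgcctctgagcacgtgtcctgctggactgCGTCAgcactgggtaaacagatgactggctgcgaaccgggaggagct

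For *Chga* the 120 bases before the start site are given (chr12:102554821-102554940, plus strand), and likewise for *Cck* (chr9:121495695-121495814, minus strand). For *Chgb* (chr2:132781559-132781588, plus strand) and *Sst* (chr16:23890874-23890903, minus strand) only the 30 bases around the element are given, since the GENCODE annotation places the first exon of these genes further upstream than RefSeq and the element then lies within that exon. Counted from the RefSeq start, the element began 44 bases before it in *Chga*, 72 bases before it in *Chgb* and 48 bases before it in *Sst*. The match in *Chga* was TGACGTAA, and those in *Chgb* and *Sst* were TGACGTCA. All 10 genes matched a RefSeq promoter of 300 bases (250 before and 50 after the start), in 13 windows, because *Insl5*, *Tph1* and *Pyy* have more than 1 start. The motif TGACGTNA was found in 3 of the 10 genes (3 of their 13 windows) and in 2.93% of all 32851 windows. The core TGACG, which the longer motif contains, was found in 6 of the 10 genes (*Chga*, *Chgb*, *Tph1*, *Sst*, *Cck* and *Nts*). These made up 7 of the 13 windows of the members, against 20.8% of all windows. The E-box motif CAGNTG, of the kind that NEUROD1 and related factors bind, was found in 6 of the 10 genes (7 of their 13 windows). It was found in 51.4% of all windows, so the share of the members is near that background. These are matches of letters only.

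Levels are given in FPKM, that is, fragments scaled both to the length of the transcript and to the mapped fragments of the library, so that levels of different genes can be set side by side. The totals of the FPKM values were close, from 585350 to 600028 per mouse, and 16287 to 16619 genes were above 0. The libraries differed in other ways. OP mouse 1 had the lowest value of the 6 mice in 54.4% of all genes tested, OP mouse 3 had the highest in 24.9%, and OP mouse 2 stood apart in *Hoxb13* and *Hoxa13*, described with *Insl5*. The summed FPKM of 12 markers of the colon epithelium was high in every mouse, between 15591 and 30022, but single markers varied. *Epcam* stayed between 935 and 1188 FPKM. *Aqp8* ranged from 10.1 in OR mouse 1 to 1084 in OP mouse 2, and *Slc26a3* from 50.3 in OR mouse 3 to 415 in OP mouse 2. By limma-trend with Benjamini-Hochberg adjustment, 0.0222% of the genes tested were called lower in OP mice and 0% higher (fold change of 1.2 or more either way, adjusted p below 0.2). With an unadjusted p below 0.05 these shares were 3.53% and 0.503%. At the same fold change and adjusted p thresholds the study, which used DESeq2, reported many more genes, most of them lower in OP mice. A gene not called here is therefore not shown to be unchanged. Of all genes tested, 6.81% were lower in OP mice with no overlap between the groups, and 1.63% were higher with no overlap.

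None of the 10 enteroendocrine genes passed the test between OP and OR mice. Against this background, 0 of the 10 were called, and 0 of the 10 were higher and 0 of the 10 lower at an unadjusted limma-trend p below 0.05. In all 10 genes the OP and OR mice overlapped. On the log2(FPKM + 1) scale 5 genes had a positive and 5 a negative fold change OP/OR, with a median of -0.011, where the median over all genes tested was -0.10. The limma-trend p ranged from 0.266 (*Insl5*) to 0.956 (*Chgb*), and the adjusted p from 0.945 to 0.993. The intervals were wide, and differences of several-fold in either direction stayed inside them for most genes. The RNA was from bulk colon tissue, in which fewer enteroendocrine cells and less RNA per cell cannot be told apart.

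**Figure D1:**
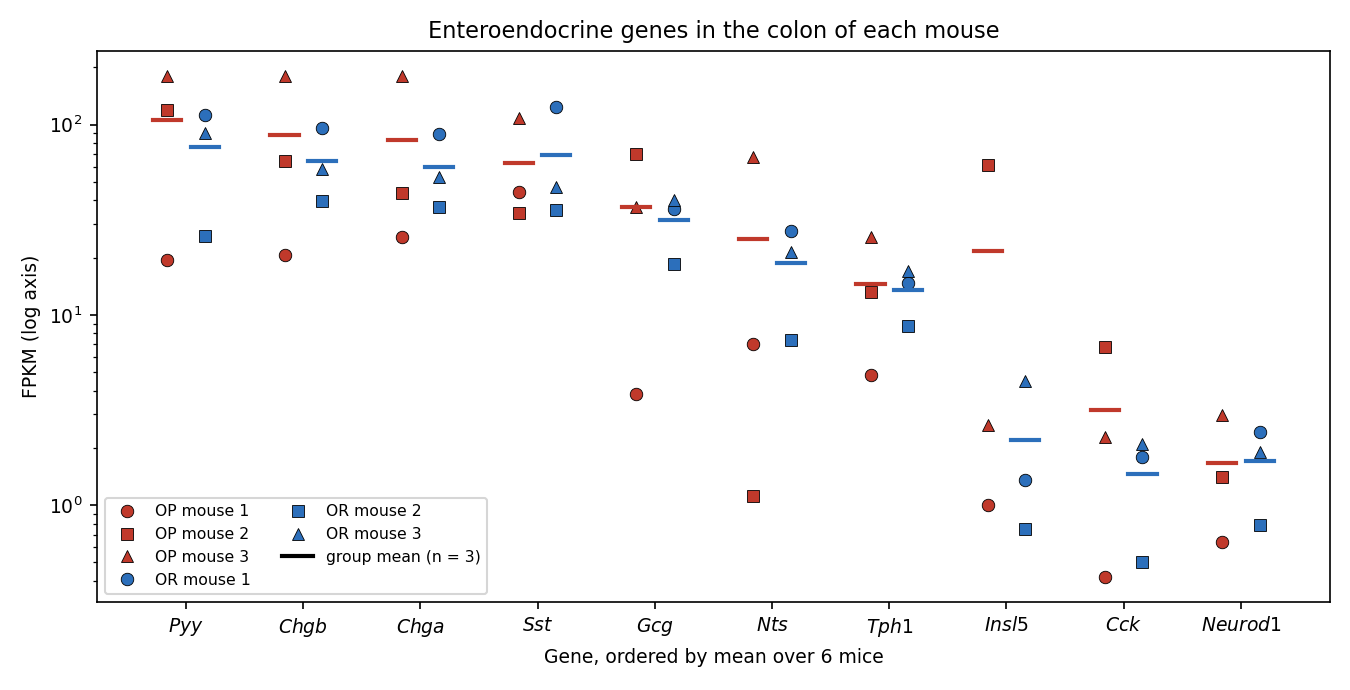
FPKM of the 10 genes (log axis) in each of the 6 mice, with OP mice in red, OR mice in blue, 1 symbol per mouse number and bars at the group means (n = 3). In every gene the red and blue symbols overlap, and in 9 of the 10 genes the OP mice are spread more widely than the OR mice.

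*Chga* and *Chgb* encode chromogranins A and B, acidic proteins of the dense-core granule that mark most enteroendocrine cells. OP mice 1, 2 and 3 had *Chga* at 25.8, 43.7 and 179 FPKM, and OR mice 1, 2 and 3 had it at 88.8, 36.9 and 52.9 FPKM. OP mouse 3 was the highest of the 6 mice and OP mouse 1 the lowest, so that the OP group enclosed all OR mice. The OP mean was 82.9 ± 83.9 (SD, n = 3) and the OR mean 59.5 ± 26.6 (SD, n = 3). The log2 fold change was 0.08 (standard error 0.67, 95% interval -1.49 to 1.65, adjusted p = 0.988 by limma-trend with Benjamini-Hochberg adjustment).

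*Chgb* had an FPKM of 20.6, 64.3 and 181 across OP animals, against 95.6, 39.8 and 58.7 across OR animals. OP mouse 3 was again the highest and OP mouse 1 the lowest. Its log2 fold change was 0.04 (standard error 0.71, 95% interval -1.63 to 1.71). Within a mouse the chromogranins stayed close to each other, and the ratio of the FPKM of *Chgb* to that of *Chga* lay between 0.799 and 1.47 in the 6 mice, whereas the FPKM of *Chga* itself varied 6.95-fold.

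*Tph1* encodes tryptophan hydroxylase 1, the rate-limiting enzyme of serotonin synthesis outside the nervous system, and marks enterochromaffin cells. Its FPKM was 4.83, 13.1 and 25.5 across OP animals, against 14.6, 8.74 and 17.0 across OR animals. As for the chromogranins, the lowest and the highest values of the 6 belonged to OP mice 1 and 3. The log2 fold change was -0.11 (standard error 0.52, 95% interval -1.34 to 1.12). Mast cells also make *Tph1*. Of their 9 markers, 2 passed the filter on low values, the summed FPKM was 4.93 to 13.0 in OP mice and 2.76 to 30.7 in OR mice, and *Cpa3*, *Cma1*, *Tpsb2*, *Hdc*, *Fcer1a* and *Ms4a2* were listed at 0 in at least 1 mouse. The part of mast cells in the *Tph1* values was not tested.

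*Gcg* encodes proglucagon, from which L cells cut glucagon-like peptides 1 and 2. It had an FPKM of 3.86, 70.0 and 36.8 across OP animals, against 35.8, 18.5 and 40.2 across OR animals. OP mouse 2 was the highest and OP mouse 1 the lowest, an 18.1-fold range within the OP group against a 2.17-fold range within the OR group. The means were 36.9 ± 33.1 (SD, n = 3) and 31.5 ± 11.5 (SD, n = 3), and the log2 fold change was -0.39 (standard error 0.90, 95% interval -2.51 to 1.72). The mean FPKM was thus higher in OP mice while the mean on the log scale was lower. Without OP mouse 1 the log2 fold change was 0.74 (adjusted p = 1.00 by limma-trend).

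*Pyy* encodes peptide YY, an L cell hormone that slows transit and lowers appetite, and had the highest mean of the 10 genes over the 6 mice, 90.9 FPKM. It had 19.4, 119 and 179 FPKM across OP animals, against 112, 26.1 and 90.0 across OR animals. OP mouse 1 and OR mouse 2 were low, and the other 4 mice lay between 90.0 and 179. The log2 fold change was 0.22 (standard error 0.86, 95% interval -1.79 to 2.23).

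*Insl5* encodes insulin-like peptide 5, an L cell hormone of the distal colon and rectum. Its FPKM was 1.00, 61.5 and 2.63 across OP animals, against 1.35, 0.75 and 4.50 across OR animals. A single library, OP mouse 2, held almost all of the signal, 13.7 times the next highest mouse. The mean in OP mice was 9.87 times that in OR mice, and the log2 fold change was 1.44 (standard error 1.197, 95% interval -1.36 to 4.24), the largest of the 10 genes. Without OP mouse 2 the log2 fold change of *Insl5* was -0.07 (standard error 0.51), so the group difference rested on that mouse. A two-sided exact permutation test of the difference of means gave p = 0.6 for *Insl5*.

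OP mouse 2 also stood apart in some of the 6 posterior *Hox* genes, which mark position along the gut, though not all in one direction. *Hoxb13*, a *Hox* gene of the most posterior tissues, was at 46.9 FPKM in OP mouse 2, at 1.29 in OP mouse 1, at 0.36 in OR mouse 3 and listed at 0 in the other 3 mice. *Hoxa13* was at 0.27, 29.5 and 1.07 FPKM across OP animals, against 1.03, 0.36 and 3.58 across OR animals. The mice took nearly the same order in *Hoxa13* as in *Insl5*, with OP mouse 2 first, OR mouse 3 second and OP mouse 3 and OR mouse 1 next, and only OP mouse 1 and OR mouse 2 exchanged places at the bottom. The summed FPKM of the 6 posterior *Hox* genes was 82.4 in OP mouse 2 and 4.07 to 9.75 in the other 5 mice. *Hoxd11* went the other way, listed at 0 in OP mouse 2 and at 0.54 to 1.23 FPKM in the other 5 mice. *Hoxd13* and *Hoxd12* stayed below 0.2 FPKM in every mouse, OP mouse 2 included. The part of position along the colon in the *Insl5* values was not tested.

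**Figure D2:**
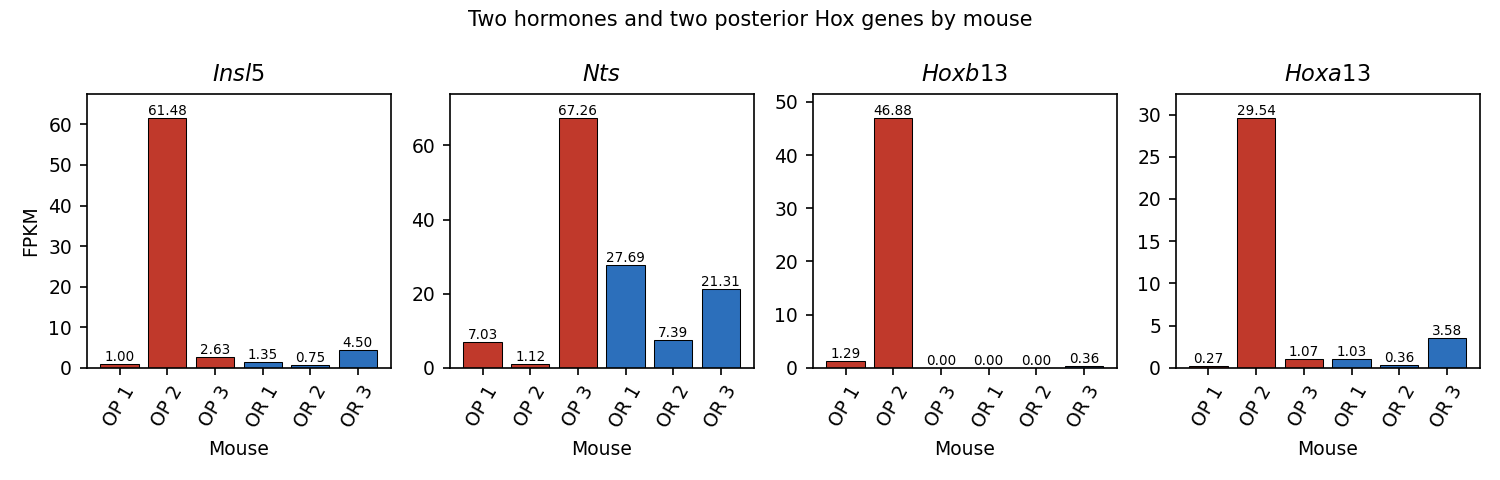
FPKM of *Insl5*, *Nts*, *Hoxb13* and *Hoxa13* in each of the 6 mice, as bars from 0 (OP mice in red, OR mice in blue). OP mouse 2 has the highest bar for *Insl5*, *Hoxb13* and *Hoxa13* and the lowest, 1.12, for *Nts*.

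*Nts* encodes neurotensin, a hormone of enteroendocrine N cells that enteric neurons also contain. It had an FPKM of 7.03, 1.12 and 67.3 across OP animals, against 27.7, 7.39 and 21.3 across OR animals. Here OP mouse 2 was the lowest of the 6 and OP mouse 3 the highest, a 60.1-fold range within the OP group against 3.75-fold within the OR group. The log2 fold change was -0.74 (standard error 1.15, 95% interval -3.44 to 1.97). It was 0.42 without OP mouse 2 and -2.09 without OP mouse 3, where the unadjusted limma-trend p of *Nts* was 0.0270 and the adjusted p 0.480.

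*Cck* encodes cholecystokinin, a hormone that is best known from the small intestine, where it causes the gall bladder to contract. Its levels in the colon were low, at 0.42, 6.75 and 2.29 FPKM across OP animals, against 1.78, 0.50 and 2.09 across OR animals. As for *Gcg* and *Insl5*, OP mouse 2 was the highest. The log2 fold change was 0.50 (standard error 0.59, 95% interval -0.89 to 1.89), and it was -0.12 without OP mouse 2.

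*Sst* encodes somatostatin, the D cell peptide that inhibits the release of other hormones, and enteric neurons contain it too. Its FPKM was 44.3, 34.3 and 109 across OP animals, against 124, 35.6 and 47.0 across OR animals. OR mouse 1 and OP mouse 3 were high and the other 4 mice lay between 34.3 and 47.0. The log2 fold change was -0.11 (standard error 0.55, 95% interval -1.39 to 1.18).

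*Neurod1*, a transcription factor that drives the late differentiation of enteroendocrine cells, was the least abundant member. It had 0.64, 1.41 and 2.96 FPKM across OP animals, against 2.43, 0.79 and 1.90 across OR animals. OP mouse 3 was the highest and OP mouse 1 the lowest, as in the chromogranins. Its log2 fold change was -0.06 (standard error 0.37, 95% interval -0.94 to 0.81). The pseudocount of 1 is of the same size as these values, so the fold changes of *Neurod1* and *Cck*, and their errors, are understated on this scale. It also weighs on the low values of *Insl5* and *Nts*. With a pseudocount of 0.1 their log2 fold changes were 1.68 (standard error 1.42) and -0.98 (standard error 1.32).

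**Figure D3:**
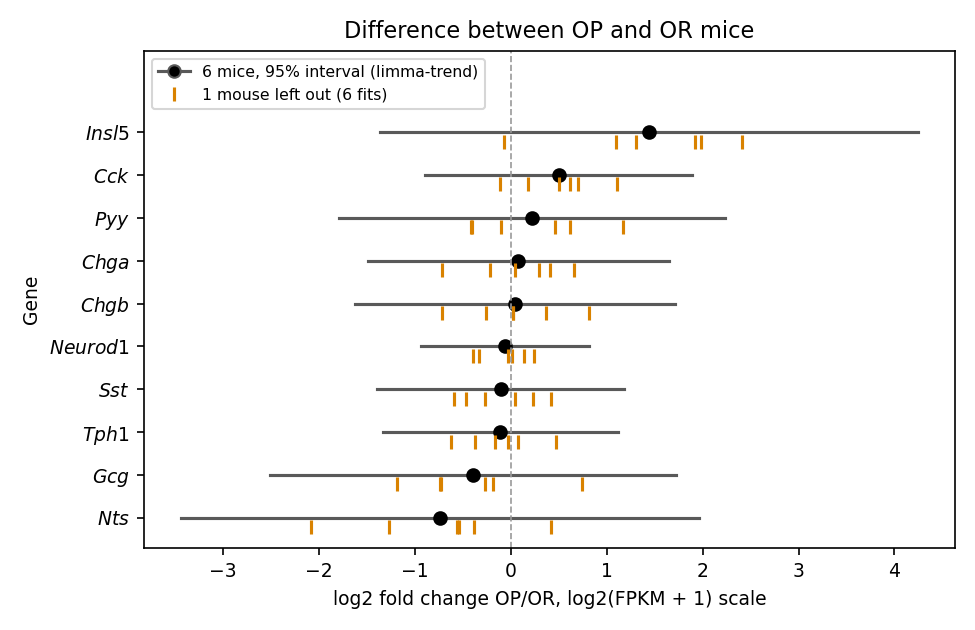
Log2 fold change OP/OR of the 10 genes on the log2(FPKM + 1) scale, with the 95% interval of limma-trend over the 6 mice (black) and orange ticks for the 6 fits with 1 mouse omitted. Every interval includes 0, and the ticks of every gene lie on both sides of 0.

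By mean over the 6 mice the order of the genes was *Pyy* (90.9 FPKM), *Chgb* (76.6), *Chga* (71.2), *Sst* (65.7), *Gcg* (34.2), *Nts* (21.97), *Tph1* (14.0), *Insl5* (11.95), *Cck* (2.31) and *Neurod1* (1.69). Neighbours in this order overlapped in their ranges over the mice throughout. *Insl5* owed its place to OP mouse 2, since its median over the 6 mice was 1.99 FPKM against 13.9 for *Tph1*.

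The spread between mice of the same group was the clearest property of these genes. On the log2(FPKM + 1) scale the median SD within groups was 1.14 over the 10 genes and 0.253 over all genes tested. Ranked by this SD among the 13520 genes, *Insl5* stood at 26, *Nts* at 34, *Gcg* at 71, *Pyy* at 85, *Chgb* at 170, *Chga* at 198, *Cck* at 310, *Sst* at 361, *Tph1* at 423 and *Neurod1* at 1167. Thus 9 of the 10 genes were among the 500 with the largest spread. A wide spread was not particular to them. The standard error of the log2 fold change was 1.61 for *Aqp8*, 1.21 for *Muc2* and 1.19 for *Agr2*, against 0.67 for *Chga*. Other epithelium genes were steadier, at 0.16 for *Epcam* and for *Cdh1*. The group label accounted for a median of 0.756% of the variance over the 6 mice, from 0.0449% in *Chgb* to 16.7% in *Insl5*. In 9 of the 10 genes the range was wider in OP than in OR mice, with *Sst* the exception, and this was also so in 75.7% of all genes tested.

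**Figure D4:**
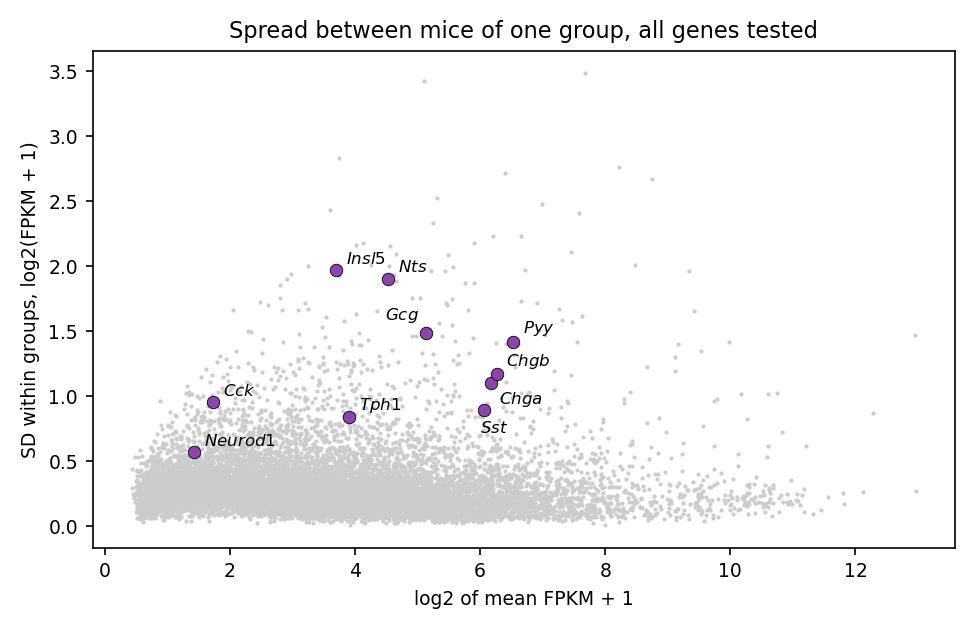
SD within groups on the log2(FPKM + 1) scale against the log2 of the mean FPKM + 1, for all 13520 genes tested (grey) and the 10 enteroendocrine genes (purple, named). Most of the 10 genes lie well above the bulk of genes of like abundance, with *Insl5* and *Nts* highest and *Neurod1* closest to the bulk.

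Across the mice most of the genes were high or low together. OP mouse 1 was the lowest in 7 of the 10 genes, where it was the lowest in 54.4% of all genes tested, so the share of the members is near the background. OP mouse 3 was the highest in 6 of the 10, against 24.9% of all genes. OR mouse 2 was the lowest of the OR mice in 10 of the 10, against 53.3% of all genes. The median deviation of the 10 genes from their means over the 6 mice was -1.17 in OP mouse 1, 0.06 in OP mouse 2 and 0.95 in OP mouse 3, and 0.54, -0.65 and 0.21 in OR mice 1, 2 and 3, on the log2(FPKM + 1) scale. *Insl5*, *Gcg*, *Cck* and *Nts* departed most from this shared pattern in OP mouse 2, the first 3 upwards and *Nts* downwards. *Pyy* (0.77) and *Sst* (-0.72) departed less in that mouse. *Insl5* also departed in OP mouse 3 (-0.36) and OR mouse 1 (-0.99).

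**Figure D5:**
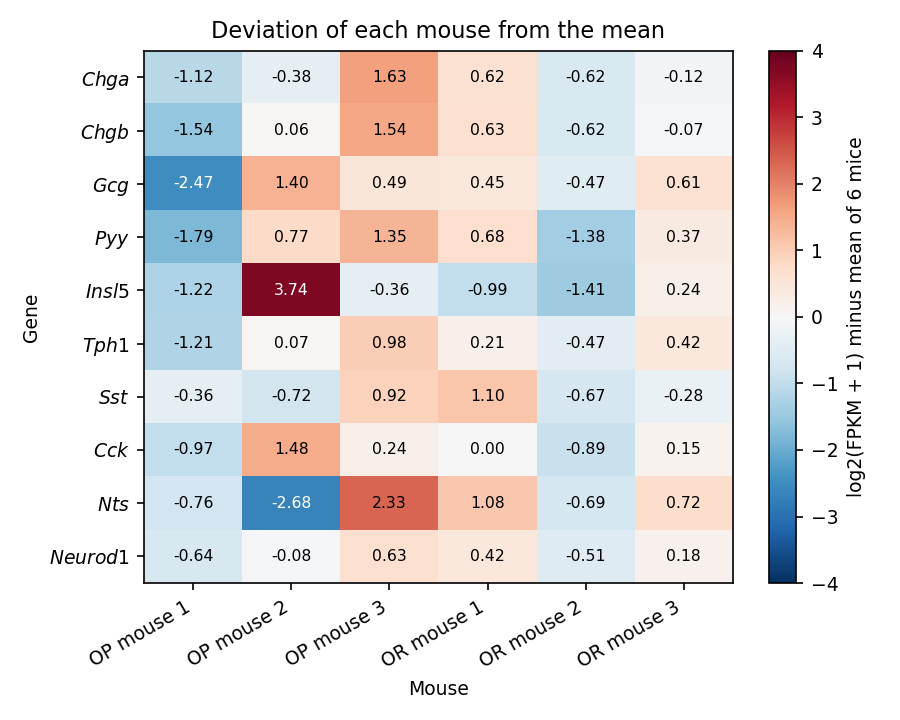
Deviation of each mouse from the mean of the 6 mice, in log2(FPKM + 1), for the 10 genes (rows) and the 6 mice (columns), with red above and blue below the mean. OP mouse 1 and OR mouse 2 are blue in every row, and OP mouse 2 runs from -2.68 in *Nts* to 3.74 in *Insl5*.

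To compare the hormones with each other within a mouse, each FPKM was divided by that of *Chga*. The ratio of *Tph1* to *Chga* lay between 0.142 and 0.321 and that of *Neurod1* between 0.0165 and 0.0359, ranges of 2.25-fold and 2.17-fold over the 6 mice. The ratio of *Gcg* was 0.150, 1.60 and 0.205 across OP animals, against 0.404, 0.501 and 0.760 across OR animals. The ratio of *Insl5* was 1.41 in OP mouse 2 and 0.0147 to 0.0851 in the other 5 mice. The ratio of *Nts* was 0.0256 in OP mouse 2 and 0.2002 to 0.403 in the others. OP mouse 2 was thus high in *Gcg*, *Pyy*, *Insl5* and *Cck* and low in *Nts* for its level of *Chga*. For all 9 ratios the groups overlapped, and two-sided exact permutation tests gave p from 0.6 to 1, with p = 1 in all 9 after adjustment over the 9 ratios.

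Markers of other cells also varied between the mice, and only the sum of the enteric neuron genes took the order of *Chga*. The epithelium, goblet cell, fibroblast and smooth muscle sums took other orders. The summed FPKM of 12 enteric neuron genes was 46.4, 70.9 and 119 across OP animals, against 116, 51.9 and 78.6 across OR animals, so that OP mouse 3 and OR mouse 1 were high and OP mouse 1 and OR mouse 2 low, as for *Chga*. Single genes of this list differed, and *Vip* was at 18.1 FPKM in OR mouse 3, its highest value, and at 6.34 in OP mouse 3. None of the 12 was listed at 0. The summed FPKM of the 12 epithelium genes was 30022 in OP mouse 1, 29759 in OR mouse 2 and 15591 to 18356 in the other 4 mice. *Car1*, a carbonic anhydrase of surface colonocytes, set this order, with 14584 and 15723 FPKM in OP mouse 1 and OR mouse 2 and 1054 in OP mouse 2. The other 11 epithelium genes summed to 15438, 15488 and 10755 FPKM across OP animals, against 10604, 14036 and 12017 across OR animals, so that OP mouse 2 was then as high as OP mouse 1. *Aqp8* and *Slc26a3* were highest in OP mouse 2, where *Car1* was lowest. Goblet cell genes summed to 1130 to 5030 in OP mice and 1793 to 7232 in OR mice. All 7 were lower in the OP group, 2 of them with an unadjusted limma-trend p below 0.05, where 3.53% of all genes tested were. Fibroblast genes summed to 95.8 to 150 in OP mice and 224 to 386 in OR mice, with 8 of 8 lower and 6 at this p. The 8 smooth muscle genes summed to 1447 to 2301 and 1792 to 3302, with 8 of 8 lower and 0 at this p. The part of these cells in the values of the hormone genes was not tested. Of the pancreas markers, *Prss2*, *Cpa1*, *Pnlip* and *Cel* were at or below 0.59 FPKM in every mouse, and *Cela1* was at 27.6 to 115.

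The wider enteroendocrine pathway was examined with 6 further lists of 81 genes in all, of which 75 were in the file and 52 were tested. None was called, and 0 were higher and 0 lower at an unadjusted limma-trend p below 0.05. Among the 52 listed genes with a mean of at least 0.5 FPKM, OP mouse 1 was the lowest in 35, and OP mouse 3 or OR mouse 1 the highest in 18 and 16. Over all genes tested, OP mouse 1 was the lowest in 54.4% and OP mouse 3 the highest in 24.9%. The share for OR mouse 1 was not computed, so these counts are not read as a property of the pathway.

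Of the other gut hormones 4 were tested, with a median log2 fold change of 0.08. *Sct*, which encodes secretin, had 48.5, 20.5 and 111 FPKM across OP animals, against 56.6, 47.7 and 45.6 across OR animals, so it was more abundant than *Gcg* or *Cck* in the mean over these colons. It was low in OP mouse 2 and high in OP mouse 3, as *Nts* was. *Tac1*, which encodes substance P of enteric neurons and enterochromaffin cells, had a mean of 15.0 FPKM over the 6 mice and a log2 fold change of 0.32 (standard error 0.32).

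All 16 granule and processing genes were tested. Their median log2 fold change was 0.0032, with 8 positive and 8 negative values. *Cpe*, which encodes the carboxypeptidase that trims prohormones, had a mean of 89.2 FPKM and a log2 fold change of -0.20 (standard error 0.25). *Pam*, which encodes the enzyme that amidates peptides such as peptide YY, had a mean of 34.6 FPKM and a log2 fold change of -0.08 (standard error 0.39). *Pam* was again lowest in OP mouse 1, at 17.9 FPKM, and highest in OP mouse 2, at 48.9 FPKM.

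Of the 12 lineage transcription factors 9 passed the filter, with a median of -0.15, 2 positive and 7 negative. The most abundant were *Foxa1* and *Foxa2*, which other epithelial cells also express. *Foxa1* had a mean of 30.2 FPKM and a log2 fold change of -0.15 (standard error 0.28), and *Foxa2* had 5.01 FPKM and -0.24 (standard error 0.48).

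Of 14 sensors of the luminal contents 7 passed the filter, with a median of -0.12. *Slc5a1*, the sodium-glucose cotransporter through which L cells sense sugar, had a mean of 46.1 FPKM and a log2 fold change of -0.12 (standard error 0.35). *Ffar4*, a receptor for long-chain fatty acids, had 5.55, 6.84 and 10.2 FPKM across OP animals, against 8.97, 11.2 and 42.5 across OR animals. OR mouse 3 lay far above the others, the groups overlapped, and the log2 fold change of -1.07 (standard error 0.54) had an adjusted p of 0.945 by limma-trend.

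Of 26 receptors for the hormones and for serotonin 12 passed the filter, with a median of 0.018, 6 positive and 6 negative. *Sort1*, the sortilin that binds neurotensin among other ligands, had a mean of 84.9 FPKM and a log2 fold change of 0.05 (standard error 0.20). *Sstr1*, a somatostatin receptor, had 2.57, 18.8 and 22.9 FPKM across OP animals, against 17.1, 4.06 and 6.31 across OR animals, with a log2 fold change of 0.45 (standard error 0.77). *Npy2r*, a receptor for peptide YY, was the single receptor whose groups did not overlap, where 6.81% of all genes tested lay in this way with lower OP values. It had 0.74, 0.33 and 0.61 FPKM across OP animals, against 1.78, 0.81 and 0.77 across OR animals, with an adjusted p of 0.945 by limma-trend. Of the genes for uptake and breakdown 4 passed the filter, with a median of -0.12. *Maoa*, which encodes a monoamine oxidase that degrades serotonin, had a mean of 270.3 FPKM and a log2 fold change of 0.11 (standard error 0.23), and *Maob* had 18.7 FPKM and -0.30 (standard error 0.18).

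The genes most like *Chgb* and *Pyy* were sought among the tested genes whose SD over the 6 mice was at least 0.8 times that of the member, by the root mean square difference of the centred log2(FPKM + 1) values over the 6 mice. For *Chgb*, the more abundant chromogranin, the nearest of 402 such genes were *Slc5a9* (0.293), *Gvin1* (0.3504), *Ybx2* (0.399), *Mmp7* (0.399) and *Pbld1* (0.411). *Chga* was nearer than all of these, at 0.251. Of the other members *Tph1* stood at 0.376, *Pyy* at 0.477 and *Neurod1* at 0.541, and *Insl5* was the farthest at 1.85. *Gvin1* belongs to a family of near-identical copies, so its values are uncertain. For *Pyy*, the most abundant peptide hormone of the list, the nearest of 226 genes were *Gcnt1* (0.391), *Sstr1* (0.409), *Ppy* (0.453), *Cdo1* (0.555) and *Mfsd4a* (0.586). *Ppy*, which encodes pancreatic polypeptide of the same peptide family, had 0.59, 13.5 and 13.3 FPKM across OP animals, against 3.73, 1.06 and 4.93 across OR animals, low in OP mouse 1 and OR mouse 2 as *Pyy* was. Members were left out of these 5, and *Chgb* stood at 0.477 from *Pyy*, nearer than *Cdo1* and *Mfsd4a*.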

How the data were processed

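Colon RNA of 3 OP and 3 OR mice was enriched for mRNA and sequenced as strand-specific libraries. The deposited table holds FPKM as the authors computed it, rounded to 2 decimals, with a column for each mouse. Per the labels and the paper's methods, Bowtie2 aligned the reads to a set of reference transcripts and RSEM estimated the expression. The submitters' processing notes name Bowtie2 2.2.5, RSEM 1.2.12, HISAT2 2.0.4 and GRCm39, and the methods give other versions of the first pair. Depth is unknown: only 2 to 8 genes per pair of mice were above 0 in both alone at values of 0.1 to 0.5, too few to read steps of single reads, so no counting interval is given.

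Of 17778 genes, 13520 reached 0.5 FPKM in 3 or more mice and were tested. Their log2(FPKM + 1) values entered a limma-trend fit of OP against OR with no covariate (limma 3.58.1 in R 4.3.3), and p-values were adjusted over all of them by Benjamini-Hochberg. Calls needed a q-value under 0.2 and a fold change of 1.2 or more, or of 0.83 or less. The study used DESeq2, which needs counts and was not run. Single values were compared by two-sided exact permutation tests (SciPy 1.17.1), which cannot go below p = 0.1 with 3 mice against 3. Alternatives were other scalings (median-of-ratios, TPM, epithelial markers), a smaller pseudocount, other filters, sample weights, a replicate block, limma without a trend, no fold threshold and leaving out each mouse. Groups and replicate numbers came from the sample labels, and each replicate is a mouse. The members and lists were chosen with earlier results of these data known. Beside the 10 members, the text names, of each further list, genes with an unadjusted p below 0.05 (there were 0) and the 2 with the highest mean, and the 5 genes nearest in pattern to *Chgb* and to *Pyy*. Other genes were named after their values were seen. Promoters are RefSeq sequences of GRCm38.p6, another build than that of the authors, and were matched by symbol.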

Additional observations from a re-analysis of the deposited data

How the results depend on the processing

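None of the 10 enteroendocrine genes was called in the fit over 6 mice or under any alternative run, with adjusted p (limma) of 0.480 or more throughout. The direction of single genes was less stable, and 25 of the 110 values that could change had the opposite sign to the fit over 6 mice (another 47 came from settings that keep the fold change by construction). Median-of-ratios scaling, which moved the median of all genes from -0.10 to 0.01, gave 0.011 for *Tph1*, 0.0296 for *Sst* and 0.0039 for *Neurod1*. Scaling on the epithelial markers, which moved it to -0.23, gave -0.0794 for *Chga* and -0.12 for *Chgb*, and sample weights gave 0.20 for *Gcg*. With 1 mouse left out the log2 fold change ranged from -0.72 to 0.66 for *Chga*, from -0.72 to 0.82 for *Chgb*, from -1.19 to 0.74 for *Gcg*, from -0.42 to 1.17 for *Pyy*, from -0.0698 to 2.41 for *Insl5*, from -0.62 to 0.47 for *Tph1*, from -0.59 to 0.42 for *Sst*, from -0.12 to 1.11 for *Cck*, from -2.09 to 0.42 for *Nts* and from -0.39 to 0.24 for *Neurod1*. OP replicates 1, 2 and 3 set most of these ends. The median over the 10 genes ranged from -0.61 without OP replicate 3 to 0.70 without OP replicate 1.

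The count of members higher at an unadjusted p below 0.05 was 0, and 1 with epithelial scaling (*Insl5*, adjusted p = 0.933 by limma). Under that scaling the log2 fold change of *Insl5* was 1.32 (standard error 0.615), against 1.44 (standard error 1.197) without it. The difference was thus not larger under that scaling. Limma draws the error of each gene towards that of other genes, and the errors of the other members fell as well, except for *Neurod1*. That of *Nts* went from 1.15 to 0.643 and that of *Gcg* from 0.903 to 0.518, while that of *Neurod1* was 0.374 and then 0.379. The lower p is therefore not read as a more precise value for *Insl5*. The count of members lower was 0, and from 0 to 1 with 1 mouse left out (*Nts* without OP replicate 3). Of all genes, 3 were called lower in OP mice. This count was 0 with median-of-ratios scaling, 0 after rescaling to TPM, 0 with a pseudocount of 0.1, 0 without the filter on low values, 0 with an FPKM of at least 1 in all 6 mice, 5 with sample weights, 22 with epithelial scaling, and from 0 to 1 with 1 mouse left out. Epithelial scaling also called 2 genes higher, against 0. The cause was not tested. With at least 1 FPKM in all 6 mice, 7 of the 10 members were tested.

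With the replicate block, 0 genes were called lower and 0 members were called. Mice sharing a number were separate animals. The correlations of their deviations from the group means, over all genes tested, were -0.144, -0.157 and 0.0709. Mice with different numbers gave 0.537 (OP mouse 1 with OR mouse 2), 0.417 (OP mouse 3 with OR mouse 1) and 0.393 (OP mouse 2 with OR mouse 3). The remaining pairs gave -0.464, -0.217 and -0.429. OP mouse 1 and OR mouse 2, both low in the median over the members, thus also moved together over all genes tested. So did OP mouse 3 and OR mouse 1, both high in that median. OP mouse 2 and OR mouse 3 were neither high nor low together in the members. The deviations sum to 0 within each group, so these correlations depend on each other. Depth is unknown, and with 3 mice a group the intervals of single genes spanned several-fold differences.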

Other observations

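Several receptors and regulators of the enteroendocrine system did not reach the filter on low values, and are given by their values alone. *Glp1r*, the receptor for glucagon-like peptide 1, was listed at 0, 0.05 and 0.77 FPKM across OP animals, against 0.16, 0.16 and 0.11 across OR animals. *Gpr119*, a receptor for lipid amides on L cells, had 0.04, 0.26 and 0.37 FPKM across OP animals, against 0.19, 0.03 and 0.13 across OR animals. *Gpbar1*, the bile acid receptor TGR5, was listed at 0, 0.88 and 0.27 FPKM across OP animals, against 0.35, 0.17 and 0.36 across OR animals. The transcription factors *Pax6* and *Isl1* stayed below 0.5 FPKM in every mouse. OP mouse 1 was the lowest of the 6 mice in *Pax6*, at 0.02 FPKM, and in *Isl1*, at 0.09 FPKM. At values this low the rounding to 2 decimals and the unknown depth limit what can be read from a single mouse.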
